A study of Mus musculus with 20 samples.

Results

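The 44 genes described here are imprinted, meaning that in many tissues mainly the copy from one parent is transcribed. They were chosen by name, and the peaks of CTCF, MAZ and RAD21 that lay within 10 kb of each gene record of the GENCODE M21 basic annotation (mm10) were taken as theirs. The genes fell into 20 clusters or single loci. Their windows covered 3.31 Mb in 33 separate stretches and held 247 of the 136043 peaks in 12 lists. Overlapping peaks of the 12 lists merged into 84 sites. At least 1 peak was listed at 33 of the 44 genes, and none was listed in the windows of H19, Kcnq1ot1, Mest, Ube3a, Ndn, Dlk1, Rtl1, Rian, Mirg, Igf2r and Peg13.

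The proteins were mapped by chromatin immunoprecipitation sequencing (ChIP-seq) in E14, a mouse embryonic stem cell line, grown in 2i medium with LIF, whose CTCF carries an auxin-inducible degron. The groups were untreated cells (WT), the same cells after 2 days of auxin, which depletes CTCF (ΔCTCF), untreated cells of a Maz knockout line made in the degron background (ΔMAZ), and that line after 2 days of auxin (ΔCTCF/ΔMAZ). The degron is therefore shared by every group, and the Maz knockout is 1 clone, labelled B2. Each of the 3 antibodies gave 1 list in each of the 4 conditions, so differences between the lists could not be set against a spread of replicates, and p-values are not given. The labels give a further sample of CTCF and of MAZ in each condition, and these 8 samples were not analysed here. Intervals below are 95% Wilson intervals and cover counting error alone.

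Imprinted clusters are governed by control regions that carry DNA methylation on one parental copy. CTCF, a zinc finger protein that stops loop extrusion, binds the unmethylated copy of several of them. At the H19 control region it keeps the maternal Igf2 promoters from enhancers beyond H19. RAD21 belongs to cohesin, the ring-shaped complex that extrudes chromatin loops, and MAZ is a zinc finger protein that binds G-rich promoters. The peak lists do not separate the parental copies, so a peak may stem from either or both.

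The depth of a library could be read from its list, since the background at each summit has a floor set by the number of reads. By that index the RAD21 list of ΔCTCF was 2.18 times as deep as that of WT and 2.34 times as deep as that of ΔCTCF/ΔMAZ. The CTCF list of WT was 1.58 times as deep as that of ΔCTCF, and the CTCF list of ΔCTCF/ΔMAZ was 1.81 times as deep as that of ΔCTCF. The MAZ list of WT was 2.65 times as deep as that of ΔCTCF. The index is an estimate from the lists and not a count of reads. Fold enrichment, the pileup of fragments at a summit over its local background with 1 added to each, is used below as the strength of a peak within a list. It is not on a common scale between libraries. The MAZ lists of ΔMAZ and ΔCTCF/ΔMAZ, which check the knockout, held 33 peaks each and none at the members.

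No peak of any of the 12 lists lay in the H19 control region, taken as 1.5 to 4.5 kb upstream of the H19 start (chr7:142579643-142582642). The nearest CTCF summit of WT was 28.1 kb away, at 32.6 kb upstream of H19 in the stretch between H19 and Igf2, with a fold enrichment of 5.99 and a pileup of 8 fragments. On the other side of H19, 40.1 kb downstream of its start, CTCF had a fold enrichment of 17.4 in WT and 18 in ΔMAZ, with no peak in ΔCTCF or ΔCTCF/ΔMAZ. RAD21 at that place had a fold enrichment of 6.26 in WT, 5.65 in ΔCTCF and 6.85 in ΔMAZ. The smallest pileup of any CTCF peak in WT was 5 fragments. Weaker binding was not detectable at this depth, and the state of the parental copies and the filtering of the list were not tested, so the missing peak does not show that CTCF was absent.

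The sequence of the H19 control region held the letters of a CTCF core. The core GGNGGCAG (N is any base) was found 5 times on either strand in these 3 kb, and all copies were on the strand of H19. Of 26346 stretches of the same length taken 20 kb beside CTCF summits, 1.67% held as many copies and 65.3% held at least 1. The core was chosen beforehand as the H19 type of CTCF core. Its number there is therefore a description and not a test. The 5 copies are shown because they mark where a CTCF peak could be looked for. Capitals mark the core, the letters run 5′ to 3′ on the minus strand, and the reference is C57BL/6J.

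H19 core 2.17 kb upstream (chr7:142580293-142580332): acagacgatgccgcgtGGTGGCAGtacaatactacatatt
H19 core 2.63 kb upstream (chr7:142580748-142580787): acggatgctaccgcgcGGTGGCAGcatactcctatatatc
H19 core 3.65 kb upstream (chr7:142581774-142581813): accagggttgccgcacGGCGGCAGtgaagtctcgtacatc
H19 core 3.77 kb upstream (chr7:142581893-142581932): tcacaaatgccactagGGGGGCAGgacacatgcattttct
H19 core 3.90 kb upstream (chr7:142582018-142582057): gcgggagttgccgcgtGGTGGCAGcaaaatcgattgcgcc

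In the 40 bases shown, the copies at 2.17, 2.63, 3.65 and 3.90 kb hold 3, 4, 4 and 5 CpG dinucleotides, the letters that DNA methylation can mark, and the copy at 3.77 kb holds 0. Against a matrix of 20 columns built from 5000 strong CTCF peaks of WT outside the member windows, the best score in the control region was 10.9. The cut-off that 1% of windows beside the summits reached was 14.1, so the H19 letters were below it.

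Of 31 control regions and starts examined, 12 held a peak in any list when 2.5 kb to each side of a start was taken. A CTCF peak of WT lay in 6 of them, a RAD21 peak of WT in 5, and both in 4. With 5 kb to each side these counts were 11, 9 and 8. Over the starts of all 55450 genes the shares were 10.5%, 8.14% and 6.92% at 2.5 kb, and 16.7%, 13.1% and 11.6% at 5 kb. Most of the 31 are starts of genes with several transcripts and were chosen by name, so the shares are given as a description. A MAZ peak of WT or ΔCTCF lay in 6, and the MAZ share over all gene starts was not computed. The IG-DMR, the methylated region 10 to 18 kb upstream of Meg3 that governs the Dlk1-Meg3 cluster, held none. KvDMR1, the start of the antisense RNA Kcnq1ot1, held none, and its nearest CTCF summit of WT was 140 kb away. The Rasgrf1 control region, 25 to 40 kb upstream of Rasgrf1, held none, with the nearest CTCF summit of WT 42.7 kb away. No peak lay within 2.5 kb of the starts of Mest, Snrpn, Peg13, Airn or Igf2r. At Snrpn, which encodes a splicing protein, a RAD21 peak of WT with a fold enrichment of 9.56 lay just outside, with its summit 0.332 kb beyond the stretch.

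At the start of Peg13, a noncoding RNA inside Trappc9, 2 matches to the CTCF matrix were found on 1 strand, with scores of 16.7 and 16.3. They are shown because the letters are there and no peak was listed. The match is in capitals, on the minus strand.

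Peg13 match 1 (chr15:72810072-72810111): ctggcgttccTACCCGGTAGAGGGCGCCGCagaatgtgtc
Peg13 match 2 (chr15:72810356-72810395): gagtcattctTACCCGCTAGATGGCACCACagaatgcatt

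**Figure D1:**
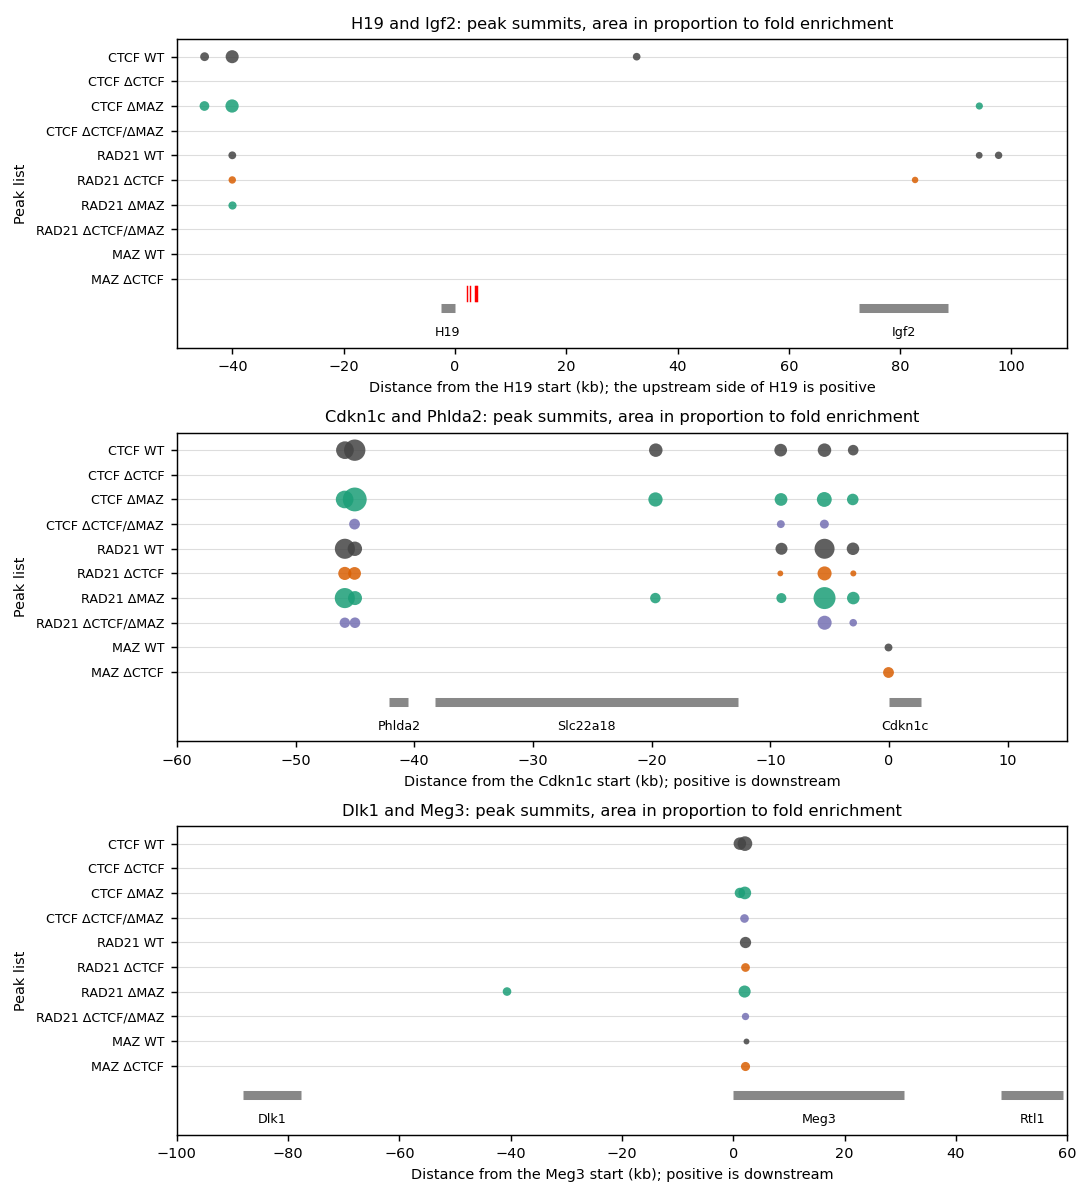
Peak summits around H19 and Igf2, Cdkn1c and Phlda2, and Dlk1 and Meg3, by distance in kb from the named start (horizontal) in 10 lists (vertical); colour gives the condition, the area of a point its fold enrichment, grey bars are genes and red ticks are the 5 core sequences in the H19 control region. No summit stands above the red ticks, while the Cdkn1c, Phlda2 and Meg3 panels hold sites at which RAD21 has a point in all 4 conditions.

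Upstream of Igf2, the growth factor gene of this cluster, 2 weak sites were listed. At 5.55 kb upstream (chr7:142672168-142672448) CTCF had a peak in ΔMAZ with a fold enrichment of 5.25 and RAD21 in WT with 4.70. At 9.01 kb upstream RAD21 had a peak in WT with 5.65. Inside Igf2, 6 kb from its start, RAD21 had a peak in ΔCTCF with 4.29. No site of this cluster had peaks in more than 2 lists.

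The Kcnq1 cluster held the most sites, 15 in all. Its sites included 2 upstream of Phlda2, a brake on placental growth, and 4 at or upstream of Cdkn1c, which encodes the cell cycle inhibitor p57. The highest CTCF fold enrichment of any member site in WT was 46.6, at 2.92 kb upstream of Phlda2 (chr7:143505881-143506269). CTCF there had 58.2 in ΔMAZ, against 11.9 in ΔCTCF/ΔMAZ, with no peak in ΔCTCF. RAD21 at this site had 21.3 in WT and 20.1 in ΔMAZ, and after auxin 16.7 in ΔCTCF and 11.4 in ΔCTCF/ΔMAZ. At 3.74 kb upstream of Phlda2, CTCF had 32 in WT and 31.9 in ΔMAZ and no peak after auxin, whereas RAD21 had 41.3, 17.6, 41.3 and 11.0 (WT, ΔCTCF, ΔMAZ, ΔCTCF/ΔMAZ; the order kept below).

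At 5.44 kb upstream of Cdkn1c (chr7:143466207-143466920) CTCF had a fold enrichment of 18.7 in WT and 22.6 in ΔMAZ, against 8.25 in ΔCTCF/ΔMAZ. RAD21 had 40.9 in WT and 49.4 in ΔMAZ, and after auxin 20.2 in ΔCTCF and 20.2 in ΔCTCF/ΔMAZ. The RAD21 values after auxin were thus the highest among the member sites in both lines. At 9.13 kb upstream, CTCF had 16.5 in WT and 16.6 in ΔMAZ, against 6.42 in ΔCTCF/ΔMAZ, and RAD21 had 14.7 in WT, 3.46 in ΔCTCF and 10.3 in ΔMAZ. At 3.02 kb upstream, CTCF had 11.5 in WT and 13.7 in ΔMAZ, and RAD21 was listed in all 4 conditions with 16, 3.72, 16.1 and 5.87.

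The start of Cdkn1c itself, 75 bp upstream, was bound by MAZ, with a fold enrichment of 6.34 in WT and 12 in ΔCTCF, and carried neither CTCF nor RAD21. Inside Kcnq1, a potassium channel gene, CTCF had 17.8 in WT at 8.61 kb from the start, 18.9 at 32.6 kb, 8.09 at 45.0 kb and 17.3 at 47.6 kb. Of these 4 sites, that at 47.6 kb kept a RAD21 peak in ΔCTCF, with 6.91 against 24.5 in WT. The sites at 32.6 and 45.0 kb had no RAD21 peak in any condition. At Ascl2, a placental transcription factor gene, RAD21 had a single peak in ΔCTCF with 3.59.

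At Meg3, the maternally expressed noncoding RNA of the Dlk1-Meg3 cluster, 2 CTCF sites lay in introns of the gene. At 2.10 kb from the start (chr12:109542833-109543556) CTCF had a fold enrichment of 22.0 in WT and 16.5 in ΔMAZ, against 7.66 in ΔCTCF/ΔMAZ. RAD21 was listed there in all 4 conditions, with 13.1 in WT and 15 in ΔMAZ, and after auxin 7.84 in ΔCTCF and 5.49 in ΔCTCF/ΔMAZ. MAZ was listed at the same site with 3.55 in WT and 8.51 in ΔCTCF. Among the 14 member sites with a MAZ peak, this was the 1 that also had CTCF and RAD21 in WT. The site at 1.18 kb had CTCF with 16 in WT and 11.1 in ΔMAZ, and no RAD21. Dlk1, Rtl1, Rian and Mirg had no peak. Between Dlk1 and Meg3, 40.7 kb upstream of Meg3 and outside the windows, RAD21 had 1 peak in ΔMAZ with 7.57.

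**Figure D2:**
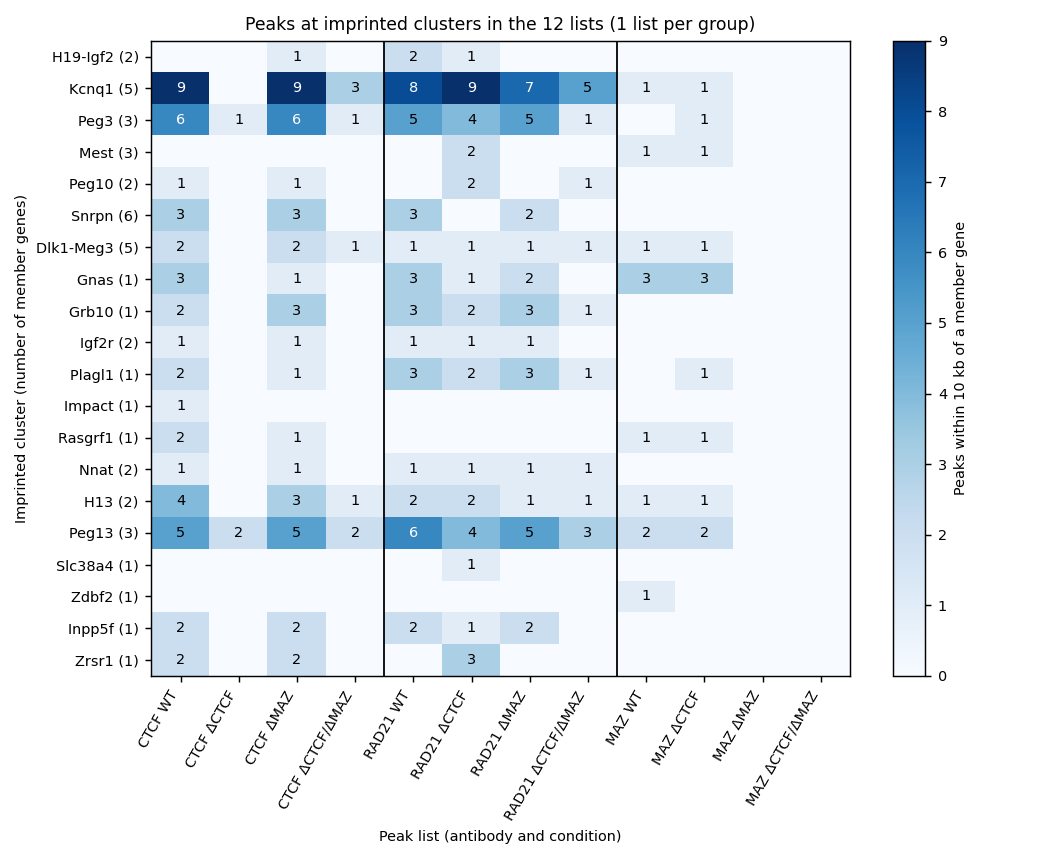
Number of peaks (colour and digits) at each imprinted cluster (rows, with the number of member genes in brackets) in each of the 12 lists (columns). The Kcnq1 row holds 9 CTCF peaks in WT and 9 in ΔMAZ, against 3 in ΔCTCF/ΔMAZ, and the MAZ columns of ΔMAZ and ΔCTCF/ΔMAZ are empty.

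In the Peg3 cluster, where the Peg3 start lies in a region methylated on the maternal copy, CTCF was listed 2.87 kb inside Peg3 (chr7:6727254-6727787) with 14.6 in WT and 7.62 in ΔMAZ, and no RAD21 was listed there. MAZ had a peak at 1.96 kb inside Peg3 in ΔCTCF with 5.42. Within Usp29, a long paternally expressed gene that starts beside Peg3, the CTCF site of highest enrichment in WT lay 207 kb from the start, with 22.6 in WT and 20.8 in ΔMAZ. The site 210 kb from the start (chr7:6940734-6941321) was 1 of 2 with CTCF and RAD21 in all conditions. CTCF had 17.3 in WT and 27.7 in ΔMAZ, and after auxin 10.8 in ΔCTCF and 13.2 in ΔCTCF/ΔMAZ. RAD21 there had 14.8 in WT and 20.1 in ΔMAZ, and after auxin 15.7 in ΔCTCF and 15.6 in ΔCTCF/ΔMAZ.

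The other such site lay 7.82 kb upstream of Trappc9 (chr15:73068775-73069287), which encodes a trafficking protein. CTCF had 31.1 in WT and 28.4 in ΔMAZ, and after auxin 12.2 in ΔCTCF and 18.3 in ΔCTCF/ΔMAZ. RAD21 had 22.8 in WT and 34.5 in ΔMAZ, and after auxin 18.2 in ΔCTCF and 13.5 in ΔCTCF/ΔMAZ. In an intron of Trappc9, 38.1 kb from its start, CTCF had 33.3 in WT and 28.4 in ΔMAZ, against 6.91 in ΔCTCF/ΔMAZ, and RAD21 had 38.3, 11.7, 31.3 and 6.41. At 3.24 kb upstream of Kcnk9, a potassium channel gene expressed from the maternal copy in brain, CTCF had 20.6 in WT, 8.14 in ΔCTCF and 29.1 in ΔMAZ. RAD21 there had 22.5 in WT, 7.59 in ΔCTCF and 25.8 in ΔMAZ, with no peak in ΔCTCF/ΔMAZ.

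In the H13 locus the retrogene Mcts2 lies within an intron of H13, a signal peptide peptidase gene. CTCF at 6.39 kb beyond the Mcts2 start had 33.3 in WT and 36.7 in ΔMAZ, against 8.16 in ΔCTCF/ΔMAZ, and RAD21 was listed in WT with 6.75. At 9.89 kb CTCF had 30.0 in WT and 29.8 in ΔMAZ, and RAD21 was listed in all conditions with 24.3, 9.05, 29.7 and 9.61. At the H13 start, 59 bp upstream, CTCF had 27.3 in WT and 20.8 in ΔMAZ with no RAD21 in any condition. Beside Nnat, the site 456 bp upstream of the Blcap start had the highest RAD21 fold enrichment of the member sites in WT, 43.1. RAD21 there had 41.5 in ΔMAZ, and after auxin 12.6 in ΔCTCF and 9.63 in ΔCTCF/ΔMAZ. CTCF at this site had 26.7 in WT and 24.9 in ΔMAZ and no peak after auxin.

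In the Snrpn cluster, CTCF was strongest 144 bp upstream of Peg12, with 24 in WT and 24.9 in ΔMAZ. RAD21 at Peg12 had 7.39 in WT and 7.21 in ΔMAZ and was not listed after auxin. The RAD21 peak by a start of Snrpn, with 9.56, was listed in WT alone and had no CTCF. No RAD21 peak of ΔCTCF or ΔCTCF/ΔMAZ lay at any of the 6 members of this cluster. Of the remaining loci, the strongest CTCF sites of WT were at Airn, the antisense RNA of Igf2r, with 19.3 at 69.4 kb from its start, and in the Inpp5f window, with 33.3 at 94.6 kb. At Grb10, a growth inhibitor gene, the strongest was 15.9 at 65.1 kb, and at Plagl1, a zinc finger gene, it was 14.2 at 10.7 kb. At Zrsr1 the value was 12.7 at 2.35 kb upstream and at Gnas, which encodes a stimulatory G protein subunit, 8.66 at 28 kb. At Impact and at the shared start of Sgce and Peg10 it was 6.66, and at Rasgrf1 5.99. Zdbf2, Slc38a4 and the Mest cluster had no CTCF peak. Slc38a4, an amino acid transporter gene, had 1 RAD21 peak, in ΔCTCF with 4.29 at 53.0 kb.

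Gnas, Inpp5f and Grb10 each had RAD21 in WT within 2.5 kb of an annotated start. At the Gnas start, 152 bp upstream, CTCF had 7.96 and RAD21 5.16 in WT, with no peak of either in the other conditions. Near a later start of Inpp5f, 79.1 kb into the gene, CTCF had 11.8 in WT and 17.4 in ΔMAZ, and RAD21 had 15.4 in WT, 3.69 in ΔCTCF and 12.3 in ΔMAZ. At 12.8 kb into Grb10, near another start, CTCF had 10.1 in ΔMAZ, and RAD21 had 5.23 in WT and 4.63 in ΔMAZ, and 12.4 kb into the gene RAD21 had 5.0 in ΔCTCF.

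**Figure D3:**
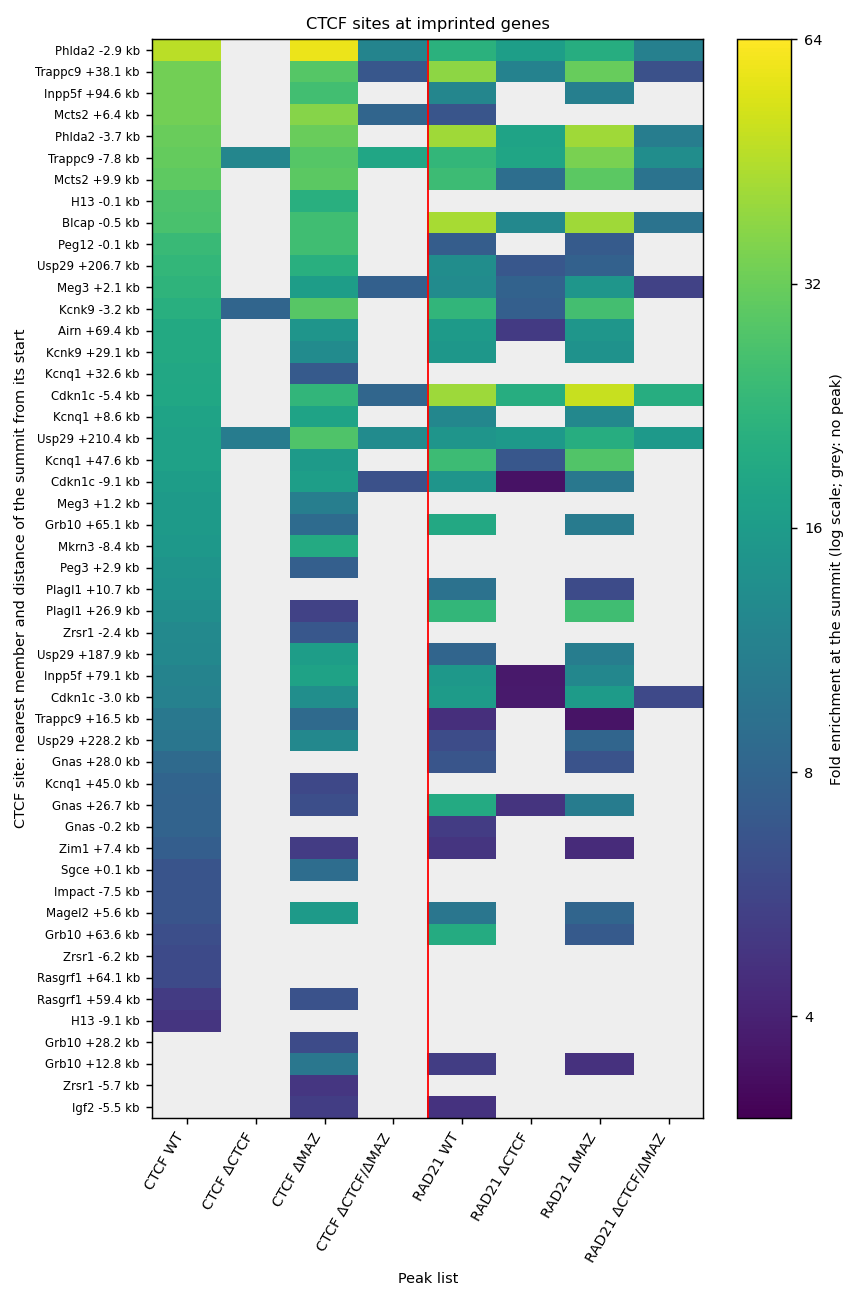
Fold enrichment (colour, log scale; grey where no peak was listed) of CTCF and RAD21 in the 4 conditions (columns) at the 50 CTCF sites of WT or ΔMAZ near the members (rows, ordered by CTCF in WT, labelled by the nearest member and the distance of the summit in kb). CTCF columns after auxin are grey at all but 9 sites, which all have a CTCF fold enrichment of at least 16.5 in WT.

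Over all members, CTCF had 46 peaks in WT and 42 in ΔMAZ, and after auxin 3 in ΔCTCF and 8 in the double-depleted ΔCTCF/ΔMAZ cells. Of the 46 peaks of WT, 3 were called in ΔCTCF (6.52%, interval 2.24 to 17.5%), beside 8.83% of the whole list. Thinned to the depth index of ΔCTCF, 42.4 of the 46 would have been expected to pass. Of the 42 CTCF peaks of ΔMAZ, 8 were called in ΔCTCF/ΔMAZ (19%, interval 9.98 to 33.3%), beside 9.72% of the whole list and 3 of 46 at 29 other imprinted genes. Whether the interval held 9.72% depended on the setting. It did where the share was 11.9% (interval 5.19 to 25%) with a reciprocal overlap of at least 50%, 14.3% (5.70 to 31.5%) in gene bodies without flanks and 14.8% (7.70 to 26.6%) with 25 kb flanks. It did not with a gap of up to 500 bp allowed, which gave the same 8 of 42. Leaving out peaks that overlap MAZ peaks of the knockout could not change the share, since none lay at the members. The interval also lay above 9.72% at a −log10 q of at least 5, with 21.1% (11.1 to 36.3%). The same held with equal numbers of strongest peaks, with 50% of 6 (18.8 to 81.2%). The share of the whole list under those settings was not computed, so these intervals cannot show whether the members differ from it. Equal numbers of strongest peaks keep the strong peaks of ΔMAZ alone. The calls of ΔCTCF/ΔMAZ came from 1 list of greater depth than that of ΔCTCF, and clone, depth and genotype cannot be told apart. At the 8 sites the fold enrichment was lower in ΔCTCF/ΔMAZ than in ΔMAZ each time, with a median ratio of 0.375, beside 99.3% lower and a median ratio of 0.319 over the 2533 such peaks of the whole list. Of the 46 peaks of WT, 38 were called in ΔMAZ (82.6%, interval 69.3 to 90.9%), beside 85.5% of the whole list. The 8 that were not called had fold enrichments of 4.8 to 14.2 in WT, and 4 sites were listed in ΔMAZ and not in WT.

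The 9 sites that kept a CTCF peak after auxin in either line were those upstream of Phlda2, at 5.44 and 9.13 kb upstream of Cdkn1c, in Meg3, in Usp29, at 6.39 kb beyond Mcts2, upstream of Kcnk9, and upstream of and within Trappc9. Their median CTCF fold enrichment in WT was 22.0 (16.5 to 46.6), and that of the other 41 CTCF sites was 11.8 (4.8 to 33.3), with the value of ΔMAZ used at the 4 sites not listed in WT. A match to the CTCF matrix within 100 bp of the summit was found at 8 of the 9 and at 25 of the 41. The site without one among the 9 was that upstream of Phlda2, which had the fold enrichment of 46.6. Its best score of 13.9 lay below the cut-off of 14.1. Median scores of the best match were 20.7 at the 9 and 15.4 at the 41. This split was not computed over the whole list, so it is not shown to be particular to the members. Over all 46 CTCF summits of WT, 33 held a match (71.7%, interval 57.5 to 82.7%), as did 74.8% of the whole list and 1.02% of the windows 2 kb beside the summits.

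Matches at 6 of the 9 sites, and at the Meg3 site that was not listed after auxin, are shown so that they can be read against one another and against the H19 letters above. The match is in capitals, 5′ to 3′ on the strand named.

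Cdkn1c 5.44 kb upstream (chr7:143466483-143466522, minus): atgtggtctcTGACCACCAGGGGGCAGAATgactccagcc
Kcnk9 3.24 kb upstream (chr15:72549558-72549597, plus): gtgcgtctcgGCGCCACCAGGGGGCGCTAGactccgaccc
Trappc9 7.82 kb upstream (chr15:73069026-73069065, plus): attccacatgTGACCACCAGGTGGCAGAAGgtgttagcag
Usp29 210 kb inside (chr7:6940922-6940961, plus): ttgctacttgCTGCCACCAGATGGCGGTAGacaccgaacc
Mcts2 6.39 kb beyond (chr2:152693411-152693450, plus): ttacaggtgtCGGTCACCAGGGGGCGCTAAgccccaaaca
Meg3 2.10 kb inside (chr12:109543025-109543064, minus): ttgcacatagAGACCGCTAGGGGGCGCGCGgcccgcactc
Meg3 1.18 kb inside, not listed after auxin (chr12:109542157-109542196, plus): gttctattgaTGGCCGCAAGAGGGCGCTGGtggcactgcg

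CpG is counted here in the 20 bases in capitals alone, and for H19 above in all 40 bases, so the counts do not compare. The matches upstream of Cdkn1c and Trappc9 hold no CpG, and that of Usp29 holds 1. Those of Kcnk9 and Mcts2 hold 2 each. In Meg3 the match at 2.10 kb holds 4 and the one not listed after auxin holds 2. The 2 Meg3 matches stand on opposite strands. At member sites with a match and a RAD21 peak in WT, the RAD21 summit lay downstream of the match, in the direction in which the letters are printed, at 21 of 24 sites (87.5%, interval 69.0 to 95.7%), with a median distance of 19 bp. Over the whole list the share was 85.3% and the median 20 bp.

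RAD21 had 40 peaks at the members in WT and 33 in ΔMAZ, and after auxin 37 in ΔCTCF and 15 in the double-depleted cells. Of the 40 peaks of WT, 33 overlapped a CTCF peak of WT (82.5%, interval 68.1 to 91.3%), beside 86.0% of the whole list. Of the 46 CTCF peaks of WT, 33 overlapped RAD21 (71.7%, interval 57.5 to 82.7%), beside 66.3% of the whole list. The 13 CTCF sites without RAD21 in WT had none in any other condition (interval 77.2 to 100%), beside 78.8% of the whole list. Their CTCF fold enrichments in WT ran from 4.8 at 9.10 kb upstream of H13 to 27.3 at the H13 start, and 9 of the 13 were called for CTCF in ΔMAZ (69.2%, interval 42.4 to 87.3%), beside 67.7% of the whole list. They included the H13 start, 2 sites in Kcnq1, the sites at 1.18 kb in Meg3 and 2.87 kb in Peg3, a site 8.41 kb upstream of Mkrn3 with CTCF at 15.3 in WT, and the Sgce and Peg10 start.

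Of the 40 RAD21 peaks of WT, 18 were called in ΔCTCF (45%, interval 30.7 to 60.2%), beside 38.9% of the whole list, although the ΔCTCF list was the deeper. At these 18 sites the fold enrichment was lower in ΔCTCF at 16, with a median ratio of 0.354, beside 89.6% lower and a median ratio of 0.496 over the 7919 such peaks of the whole list. The libraries share no scale, so these ratios do not measure a loss of RAD21. Of the 33 peaks that lay on CTCF, 17 were called in ΔCTCF (51.5%, interval 35.2 to 67.5%), beside 40.3% of such peaks in the whole list. CTCF was also called in ΔCTCF at 3 of the 17 (17.6%, interval 6.19 to 41.0%), beside 29.3% of the whole list. RAD21 in WT had a median fold enrichment of 21.3 (13.1 to 43.1) at the 17 sites whose RAD21 was called in ΔCTCF, and of 8.80 (4.54 to 22.8) at the 16 whose RAD21 was not. In the whole list these medians were 17.7 and 8.69, so the members followed the same order as all CTCF sites.

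**Figure D4:**
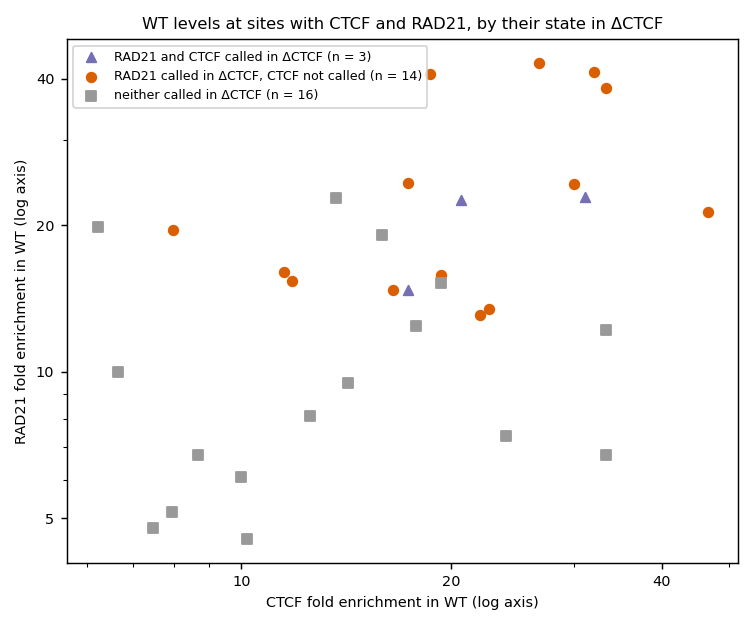
CTCF fold enrichment in WT (horizontal, log axis) against RAD21 fold enrichment in WT (vertical, log axis) at the 33 member sites with both, by what was listed in ΔCTCF. The 17 sites with RAD21 in ΔCTCF lie at or above 13.1 for RAD21, and the 16 others range from 4.54 to 22.8.

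In ΔMAZ, 33 of the 40 RAD21 peaks of WT were called (82.5%, interval 68.1 to 91.3%), beside 83.5% of the whole list. In turn, 33 of the 33 RAD21 peaks of ΔMAZ at the members overlapped one of WT (interval 89.6 to 100%), beside 81.5% of the whole list, which lies outside that interval. Of these 33, 11 were called in ΔCTCF/ΔMAZ (33.3%, interval 19.8 to 50.4%), beside 22.4% of the whole list. At these 11 sites the fold enrichment was lower in ΔCTCF/ΔMAZ at 10, with a median ratio of 0.365, beside 91.1% lower and a median ratio of 0.435 over the 4679 such peaks of the whole list. Of the 40 RAD21 peaks of WT, 11 were called in all other conditions (27.5%, interval 16.1 to 42.8%), beside 20.1% of the whole list. A CTCF peak after auxin in either line lay at 6 of the 11 (54.5%, interval 28 to 78.7%), beside 57.9% of the whole list. The other 5 were at 3.74 kb upstream of Phlda2, 3.02 kb upstream of Cdkn1c, 9.89 kb beyond Mcts2, the Blcap start and a site 47.6 kb inside Plagl1, where RAD21 had 4.58 in WT and 4.65 in ΔMAZ, and after auxin 5.88 in ΔCTCF and 4.8 in ΔCTCF/ΔMAZ with no CTCF in any list.

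RAD21 peaks of ΔCTCF that overlapped none of WT are called relocalized here. They numbered 19 of the 37 at the members (51.4%, interval 35.9 to 66.6%), beside 55.9% of the whole list. They were weak, with a median fold enrichment of 4.74 (3.20 to 6.49) against 7.71 (3.46 to 20.2) for the 18 that WT also had. Thinned to the depth index of WT, 13.2 of the 19 would have been expected to pass. None overlapped a CTCF peak of WT (0 of 19, interval up to 16.8%), beside 3.06% of the whole list. The summit lay within 1 kb of an annotated start at 9 of the 19 (47.4%, interval 27.3 to 68.3%), beside 35.4% of the whole list.

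The highest relocalized value was 6.49, at 62.1 kb inside Sgce, a sarcoglycan gene. It was followed by 6.19 at the start of Zrsr1, 28 bp upstream, by 5.96 at 29.7 kb inside Usp29, by 5.48 in H13, 38.4 kb from its start, and by 5.47 at the start of Klf14, a single-exon transcription factor gene. Other relocalized peaks at Zrsr1 had 3.94 at 863 bp beyond the start and 3.84 at 10.0 kb. MAZ was listed in ΔCTCF at 4 of the 19 (21.1%, interval 8.51 to 43.3%), beside 17.7% of the whole list. In ΔCTCF/ΔMAZ 3 of the 19 were called (15.8%, interval 5.52 to 37.6%), beside 10.8% of the whole list. These were the Trappc9 start with 5.28 in ΔCTCF and 4.94 in ΔCTCF/ΔMAZ, a site 69.5 kb inside Sgce with 5.29 and 5.01, and a site 95.8 kb inside Grb10 with 4.74 and 5.14. The Trappc9 start had MAZ in WT and ΔCTCF, and the other two had no MAZ peak. Both intervals hold the value of the whole list.

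MAZ had 11 peaks at the members in WT and 12 in ΔCTCF, at 14 sites. Of the 11, 9 were called in ΔCTCF (81.8%, interval 52.3 to 94.9%), beside 66.3% of the whole list. The MAZ list of ΔCTCF is the shallower, and the Cdkn1c start, with fold enrichments of 6.34 and 12, had a pileup of 30 fragments in both lists. Starts with MAZ were those of Cdkn1c (above), Rasgrf1, a guanine nucleotide exchange factor gene, with 5.73 in WT and 8.90 in ΔCTCF, and Trappc9, with 8.13 and 7.48. The Copg2 start had 4.5 and 5.34, and Zdbf2 had 5.52 in WT alone, 149 bp upstream. At Gnas, MAZ lay at the start 45.7 kb into the gene record with 8.18 in WT and 6.97 in ΔCTCF, and at 46.1 kb with 4.71 and 5.8. It also lay at 3.81 kb with 3.97 in WT and at 11.2 kb, by the Nespas start, with 4.64 in ΔCTCF. Further sites were in H13 at 38.4 kb, with 6.96 and 8.13, upstream of Trappc9 at 6.45 kb, with 5.35 and 4.87, and in Plagl1 at 48.5 kb, with 6.43 in ΔCTCF. In ΔCTCF, RAD21 was listed at 5 of the 12 MAZ peaks (41.7%, interval 19.3 to 68.0%), beside 31.3% of the whole list. In WT it was listed at 1 of the 11 (9.09%, interval 1.62 to 37.7%), beside 8.32% of the whole list.

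The core GGGAGGG was found on either strand within 100 bp of the summit at 8 of the 11 MAZ peaks of WT (72.7%, interval 43.4 to 90.3%), beside 46.6% of the whole list, 8.33% of windows 2 kb beside the summits and 22.0% of 32851 RefSeq promoters (GRCm38.p6). It was not found at the Cdkn1c start, where the MAZ value in ΔCTCF was the highest of the members. The Rasgrf1 and Meg3 summits of WT are shown, with the core in capitals, since 1 is a lone MAZ start and the other belongs to the site where all 3 proteins were listed. The Meg3 stretch shown lies beside the CTCF and RAD21 peaks of that site and not within them, although the MAZ peak overlaps both. The stretch is centred on the MAZ summit of WT (chr12:109543364). The distance in its label is that of the CTCF summit, which names the site.

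Rasgrf1 start (chr9:89909763-89909883, plus): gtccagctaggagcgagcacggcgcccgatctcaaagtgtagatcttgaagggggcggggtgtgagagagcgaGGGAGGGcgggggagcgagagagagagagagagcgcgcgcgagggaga
Meg3 2.10 kb inside (chr12:109543304-109543424, minus): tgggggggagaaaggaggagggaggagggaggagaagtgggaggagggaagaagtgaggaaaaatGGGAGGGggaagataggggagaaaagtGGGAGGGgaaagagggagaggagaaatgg

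**Figure D5:**
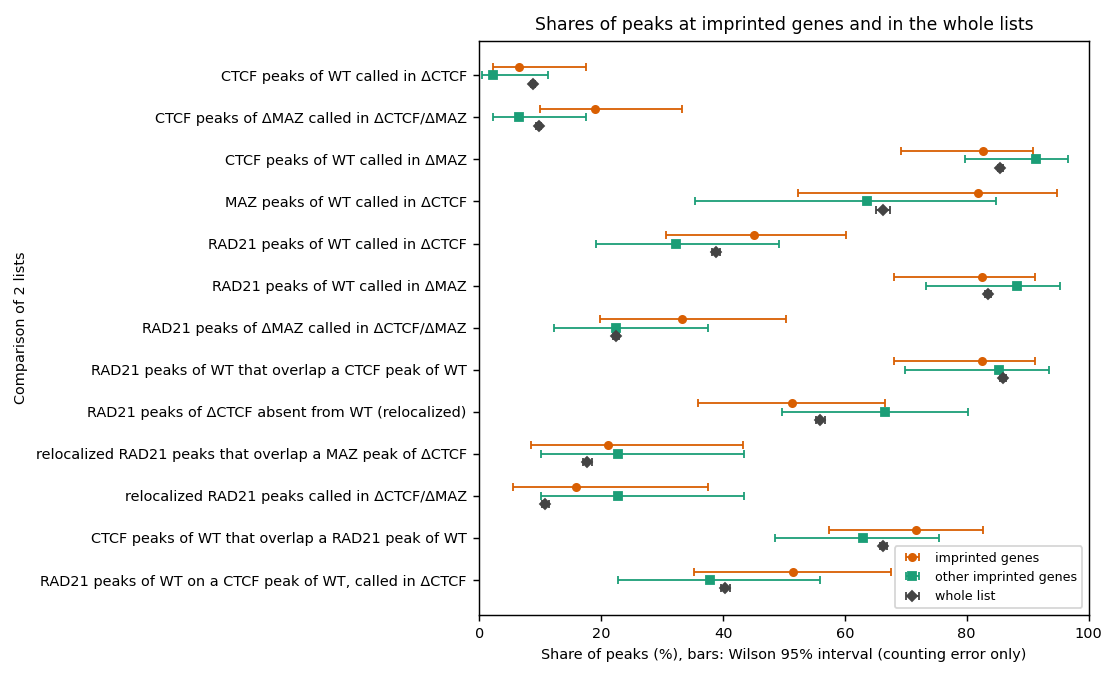
Shares of peaks in percent (horizontal, bars are 95% Wilson intervals for counting error) for 13 comparisons (rows) at the 44 members, at 29 other imprinted genes and in the whole lists. The interval of the members holds the value of the whole list in every row drawn but the CTCF peaks of ΔMAZ called in ΔCTCF/ΔMAZ, where the lower bound of 9.98% lies just above 9.72%. The RAD21 peaks of ΔMAZ called in WT, which also depart from the whole list, are not drawn.

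The 29 other imprinted genes, taken without peaks already counted, held 245 peaks. There 1 of 46 CTCF peaks of WT and 11 of 34 RAD21 peaks of WT were called in ΔCTCF, and 22 of 33 RAD21 peaks of ΔCTCF were relocalized.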

How the data were processed

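Chromatin immunoprecipitation sequencing of CTCF, MAZ and RAD21 was analysed from 12 peak lists, 1 per antibody and condition. The authors mapped reads to mm10 with Bowtie 2, used SAMtools to filter them and remove duplicates, and ran MACS for narrow peaks. The use of an input library is not given in the sources used here. Drosophila chromatin was added, but the lists are not scaled to it. The deposited columns used were the fold enrichment over the local background, the −log10 p and −log10 q-value of the summit, and the summit position. The deposited score is 10 times the −log10 q-value, cut to a whole number.

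The pileup of fragments was recovered from the fold enrichment and −log10 p of all 136043 peaks to within 0.001 of −log10 p, and a depth index was the lowest background divided by the smallest peak width. Thinning used exact binomial sums. Peaks shared at least 1 bp. Pileup recovery was tested on 2000 simulated peaks (100% recovered), and overlaps were checked against bedtools 2.31.1. The CTCF matrix was built over 8 rounds from a consensus, on windows without repeats. Python 3.11.15, NumPy 2.4.6, pandas 2.3.3 and SciPy 1.17.1 were used.

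Members, gene lists and regions were chosen with earlier results of these data known. Sites named with values were those in a control region, the strongest CTCF site of WT in each cluster, those with CTCF after auxin, those with MAZ, and the 5 strongest relocalized RAD21 sites. Members without a peak were named only. Other named sites were added after their values were seen. Alternatives covered the windows, overlap, peak threshold, list length, depth, motif cut-off and site definition.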

Additional observations from a re-analysis of the deposited data

How the results depend on the processing

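Of 156 alternative values, 143 stayed within 1.5 times a count or within the interval of a share. Some of them could not differ, so this number overstates how stable the values were. The MAZ lists of ΔMAZ and ΔCTCF/ΔMAZ held no peak at the members. Their counts stayed at none, and leaving out peaks that overlap them changed no value. Without the 10 kb flanks, CTCF peaks at the members numbered 30 in WT, 1 in ΔCTCF and 4 in ΔCTCF/ΔMAZ, and RAD21 peaks 26 in WT and 9 in ΔCTCF/ΔMAZ, since less sequence was searched. With a −log10 q of at least 10, CTCF had 3 peaks in ΔCTCF/ΔMAZ, MAZ 7 in WT and 5 in ΔCTCF, and RAD21 16 in ΔCTCF and 7 in ΔCTCF/ΔMAZ. With equal numbers of strongest peaks in both lists, 50% of 6 CTCF peaks and 71.4% of 14 RAD21 peaks of ΔMAZ were called in ΔCTCF/ΔMAZ, since that keeps the strong peaks of ΔMAZ alone. With the motif cut-off at 0.1% of windows, 19.6% of the CTCF summits of WT at the members held a match, beside 10.8% of the whole list. Thinned to an equal depth index, an estimate from the lists, 44.9% of RAD21 peaks of ΔCTCF were relocalized. The thinning of CTCF lists and the share of CTCF peaks on RAD21 were added once the values were known, as were the values of the whole list beside paired fold enrichments, and the shares at gene starts, at MAZ peaks, of sites kept in all conditions and of CTCF sites without RAD21. The share of RAD21 peaks of ΔMAZ called in WT and that of relocalized peaks on CTCF were also added once the values were known. No alternative setting was run for either. No paired analysis was possible because every condition had a single list per antibody. Depth limits the absences, since sites below the smallest listed pileup could not be listed. The cause of the missing peak at the H19 control region was not tested.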
